A study of Drosophila melanogaster with 9 samples.

Results

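The RNA recovered with the RNA-binding protein Swm from Drosophila melanogaster intestines was set against the RNA of the total lysate. The comparison uses 3 of the series' 9 libraries: 2 Swm immunoprecipitates (Swm IP replicates 1 and 2) and 1 library made from the total lysate (the input). All 3 came from whole dissected intestines labelled WT and Control, with all intestinal cells included, and the assay was titled CLIP-seq. Beads coated for Swm took the RNA out of a homogenate, a portion of the same kind of extract served as the input, and all libraries were depleted of ribosomal RNA. The labels do not give the age, the sex or the number of flies behind each of these libraries, nor whether the replicates came from separate cultures, and a p-value here reflects only how these libraries vary, which may be technical. A mock immunoprecipitate was not analysed here. The members are the 17806 rows of the count table that carry a gene name, and 8375 of them passed the filter on low counts and were tested.

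Swm carries a CCCH zinc finger and an RNA recognition motif and is a nuclear protein. In the adult fly intestine, stem cells and enteroblasts, together called progenitors, renew absorptive enterocytes and hormone-secreting enteroendocrine cells. CLIP-seq recovers the RNA that stays with a protein during immunoprecipitation, and a gene's ratio to the input says how much more or less of its RNA was recovered than the lysate held, relative to the other genes.

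Library totals were 2451369 counts in Swm IP replicate 1, 8497190 in Swm IP replicate 2 and 4615623 in the input, with 10148, 10688 and 9558 genes having at least 1 count. The 10 most abundant genes took 11.7% and 11.7% of counts in the Swm IP libraries and 20.9% in the input. Intestinal identity was plain in all 3 libraries: 28 tested digestive serine proteases made up 5.12% and 6.43% of the Swm IP counts and 11.2% of the input counts. The 95% Wilson interval of each such share was at most 0.051 percentage points to either side, for counting error only. The swm transcript itself (2L, 19493251 to 19497978, BDGP6) stood at 206 and 180 CPM (counts scaled to a common library total) in the Swm IP libraries and at 124 CPM in the input. Both Swm IP values were above the input, and the ratio did not pass the test (log2 ratio 0.41 relative to genes of like span, SE 0.24, edgeR adjusted p = 0.393).

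The first property that ordered the ratios was length. Genes were split into 10 bins of equal number by span, the distance between a gene's first and last base with introns included, which is the length in the count table. Without any matching for length, the median log2 ratio of Swm IP over input was -1.18 in the bin of the shortest genes (55 to 1033 bases) and 1.19 in the bin of the longest (23487 bases and more). The medians of the bins between were -0.80, -0.55, -0.32, -0.17, -0.04, 0.28, 0.44, 0.82 from short to long, without a step out of order. Each Swm IP library showed the order by itself: replicate 1 had medians of -1.36 in the shortest bin and 1.14 in the longest, and replicate 2 had -1.06 and 1.06. The 2 libraries differed most among short genes, with a median log2 difference of replicate 1 minus replicate 2 of -0.28 in the shortest bin.

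**Figure D1:**
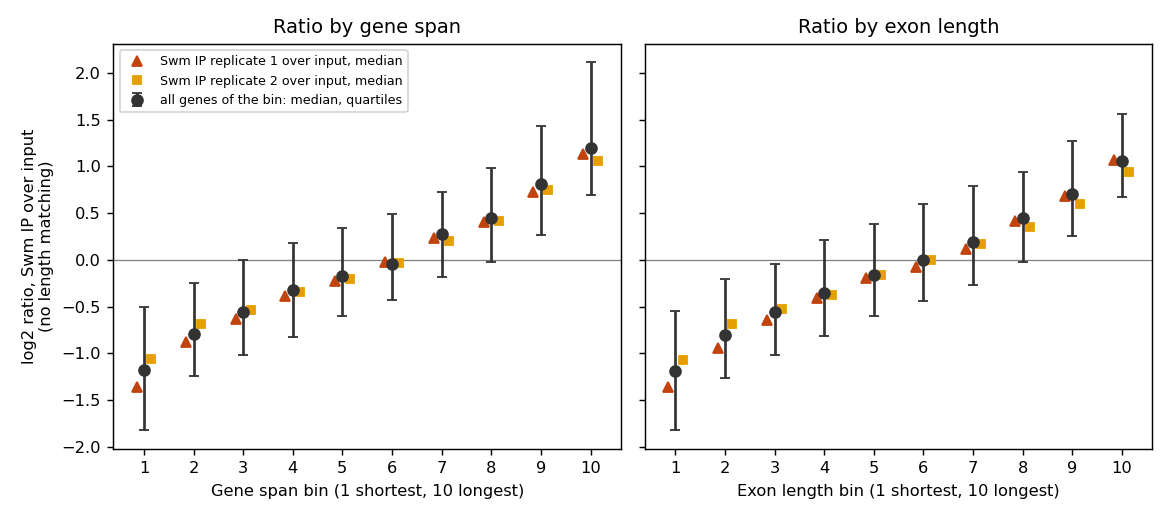
Median log2 ratio of Swm IP over input without length matching, in 10 bins of gene span (left) and of exon length (right), with quartiles over genes as bars and each Swm IP library as a coloured point. Medians climb from -1.18 to 1.19 over the span bins and from -1.19 to 1.05 over the exon-length bins, and both Swm IP libraries follow the same course.

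In shares of counts, the longest span bin held 20.7% and 20.1% of the counts of tested genes in the Swm IP libraries and 8.27% in the input. The shortest bin held 10.5% and 10.9% in the Swm IP libraries and 20.7% in the input. The 2 Swm IP libraries lay on the same side of the input in every one of the 10 bins.

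**Figure D2:**
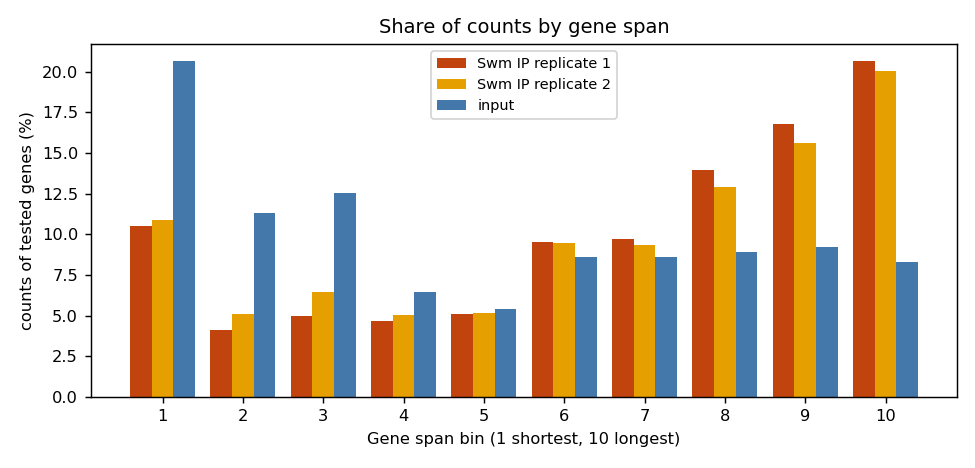
Percentage of the counts of tested genes that falls in each of 10 bins of gene span, for Swm IP replicates 1 and 2 and the input, left to right in each group of bars. The Swm IP bars stand below the input bars in bins 1 to 5 and above them in bins 6 to 10.

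Exon length, with introns left out, ordered the genes nearly as strongly, with medians from -1.19 in the shortest exon-length bin to 1.05 in the longest (6264 bases of exon and more). Spans and exon lengths could be told apart within bins. Among genes of like span, those with more intron had lower ratios: in span bins 1 to 9 the median of the class with the most intron was below that of the class with the least, in bin 10 it was above. In span bin 6 the median log2 ratio without matching was 0.52 for 21 genes without introns, 0.11 at up to 10% intron, 0.02 at 10 to 25%, -0.15 at 25 to 50% and -0.51 for 77 genes at 50 to 75%. In span bin 8 it was 0.79 for 60 genes at up to 10% intron and 0.09 for 81 genes at 75 to 100%.

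Among genes of like exon length, the picture was another one. Medians showed no steady direction up to 50% intron and were highest in the class of 75 to 100% intron in all 10 exon-length bins. In exon-length bin 3 the medians were -0.67 for genes without introns, -0.57, -0.59, -0.52 and -0.46 in the next classes and 0.17 for 43 genes at 75 to 100% intron. In exon-length bin 7 the value was -0.01 for 187 genes at up to 10% intron and 0.98 for 130 genes at 75 to 100%. The ratio thus followed the amount of exon at a given span, and at a given exon length it was higher for genes with the largest introns. These are descriptions over genes, which are not replicates. Whether reads in introns were counted is not given in the sources used here, so the ratios cannot be taken as those of exon reads alone.

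**Figure D3:**
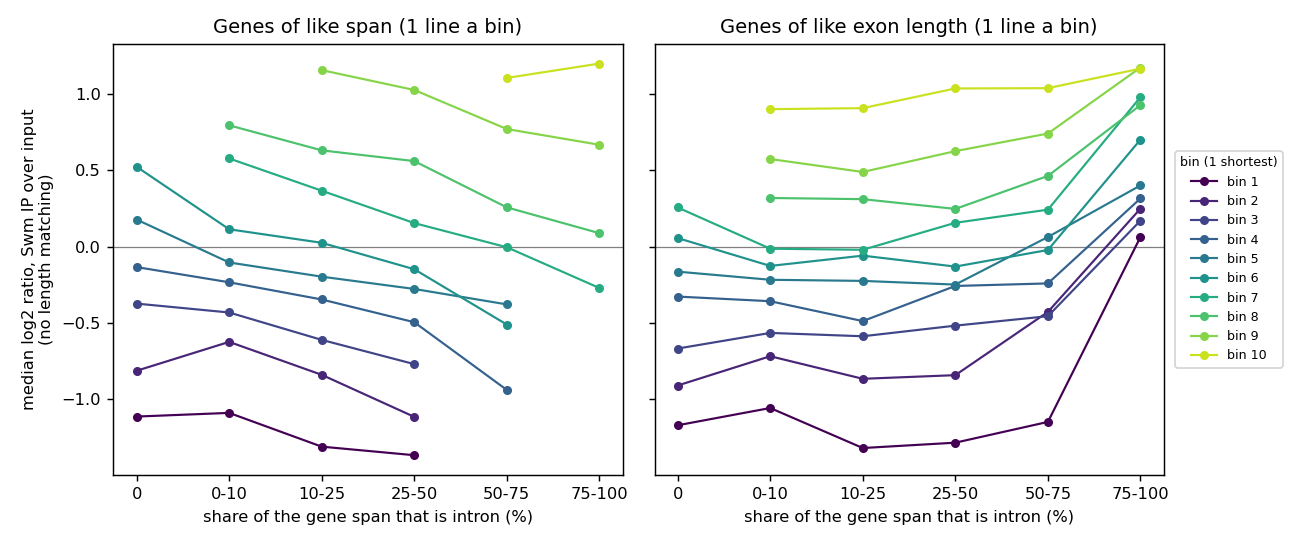
Median log2 ratio of Swm IP over input, without length matching, by the share of the gene span that is intron, with 1 line for each of 10 bins of span (left) or of exon length (right); classes under 20 genes are not drawn. At like span the lines end lower than they start in bins 1 to 9, and at like exon length each line ends at its highest point, at 75 to 100% intron.

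Because of this, ratios below are given relative to genes of like span (span-matched), with the value relative to genes of like exon length beside it where the 2 part. A span-matched ratio of 0 means that a gene was recovered like other genes of its span bin, whatever its raw CPM. In the edgeR test within span bins, 165 of 8375 genes were higher in Swm IP than in input (1.97%) and 394 were lower (4.7%) at an adjusted p below 0.05. At an unadjusted p below 0.05, 609 were higher and 859 lower. Without length matching the counts were 775 higher (9.25%) and 751 lower (8.97%). Within exon-length bins they were 213 higher (2.54%) and 360 lower (4.3%). By size alone, 690 genes (8.24%) were at least 2-fold higher and 333 (3.98%) at least 2-fold lower in both Swm IP libraries within span bins. The filter bears on these counts. Of the tested genes 173 had no input count and 373 had 1 to 3, while 7 had no count in either Swm IP library. Genes with no input count or with 1 to 3 passed only through the Swm IP libraries. So did genes with more than 3 input counts that were still below the filter's minimum, whose number is not given here. All of these had to be higher in a Swm IP library. The 173 and 373 therefore understate how far the filter favoured higher genes. With a minimum of 30 counts the size rule gave 251 higher and 204 lower.

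Of the span-matched calls, 96 of the 165 higher and 245 of the 394 lower genes were also called within exon-length bins, in the same direction. Gene structure showed in the rest. Genes whose span is more than 50% intron made up 27.5% of tested genes but 55.6% of the genes called lower within span bins and 16.4% of those called higher. Within exon-length bins the shares were 29.4% of the lower and 54.5% of the higher calls. Across 6 treatments of length (5, 10 and 20 span bins, a smooth trend on span, exon-length bins and exon-length bins crossed with span bins) 87 genes were called higher in every one and 189 lower in every one.

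Genes that lead their span bin were taken from each bin, among genes with at least 10 input counts where higher. In the longest bin uif and ct led. uif (2L, 6972828 to 7010359), which encodes a large apical transmembrane protein of epithelia and trachea, had 74.9 and 102 CPM in the Swm IP libraries and 4.95 CPM in the input. ct (X, 7608428 to 7678859), the homeodomain transcription factor Cut, had 139 and 62.8 CPM in Swm IP and 4.7 CPM in the input. Both Swm IP libraries lay more than 10-fold above the input for both genes, and the span-matched log2 ratios were 3.08 (SE 0.43, adjusted p = 2.7e-06) for uif and 3.29 (SE 0.52, adjusted p = 0.00142) for ct. Cut is a factor of the copper cells of the middle midgut and of the Malpighian tubules.

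HERC2 (X, 20394395 to 20412247), which encodes a giant ubiquitin ligase, led bin 9. It had 513 and 455 CPM in Swm IP and 82.1 CPM in the input, a span-matched log2 ratio of 1.86 (SE 0.24, adjusted p = 8.2e-07) and one of 1.54 relative to genes of like exon length. With 1335 and 4146 counts in Swm IP and 332 in the input, it was the most deeply counted of the genes that lead their bins upward apart from CNBP. The ETS transcription factor gene Ets21C, a target of JNK signalling, stood at 86.9 and 62.5 CPM in Swm IP and 18.8 CPM in the input (span-matched log2 ratio 1.60, adjusted p = 0.00402). Kul, a metalloprotease gene of bin 8 like Ets21C, and Br140, a bromodomain gene of bin 7, were called at 1.82 and 1.14. Relative to genes of like exon length they stood only at 1.18 and 0.74, with edgeR adjusted p = 0.172 and 0.247.

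Shorter genes led their bins as follows. CNBP (2R, 22934569 to 22937077), a zinc knuckle nucleic acid-binding protein without introns here, had 447 and 467 CPM in Swm IP and 258 CPM in the input (span-matched log2 ratio 1.07, SE 0.23, adjusted p = 0.00191). The kinase gene Lkb1 of bin 5 stood at 1.40, the lipid phosphatase gene laza of bin 4 at 1.32 and the xylosyltransferase gene oxt of bin 6 at 1.54. Mur18B, which encodes a mucin-related protein, had 45.7 and 76.8 CPM in Swm IP and 13.4 CPM in the input (2.81, SE 0.43, adjusted p = 1.9e-05). The zinc transporter gene Zip42C.2 in bin 2 reached 30.4 and 13.7 CPM in Swm IP and 7.67 CPM in the input, so its Swm IP libraries differed from each other by more than the lower one differed from the input (2.37, SE 0.67, adjusted p = 0.0263). Cyp4g15, a cytochrome P450 gene, had the fewest input counts of these genes, 14, with 20.8 and 44.1 CPM in Swm IP and 3.46 CPM in the input (3.03, SE 0.64, adjusted p = 0.00217).

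Of the alkaline phosphatase genes, a family of brush border enzymes listed here after its values were seen, 5 were tested, 2 of them higher and 1 lower. The background, here and for the mucins below, was 1.97% higher and 4.7% lower. Alp4 had 135 and 131 CPM in Swm IP and 29.2 CPM in the input (span-matched log2 ratio 2.25, SE 0.31, adjusted p = 2.6e-06), and Alp2 had 65.7 and 97.2 CPM in Swm IP and 22.0 CPM in the input (2.27, SE 0.37, adjusted p = 4.9e-05). Alp10 went the other way, with 369 and 328 CPM in Swm IP and 888 CPM in the input (-1.11, SE 0.22, adjusted p = 0.000619). Both Swm IP libraries stood on the same side of the input for all 3 genes. The mucins, also listed after their values were seen, split likewise: of 10 tested, Mur18B and Mur2B (1.19, adjusted p = 0.0011) were higher, and Muc68D, with 5876 and 4805 CPM in Swm IP and 10182 CPM in the input, was lower (-1.16, adjusted p = 0.00242). Members of such families can share reads, and how the counting treated shared reads is not given in the sources used here.

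**Figure D4:**
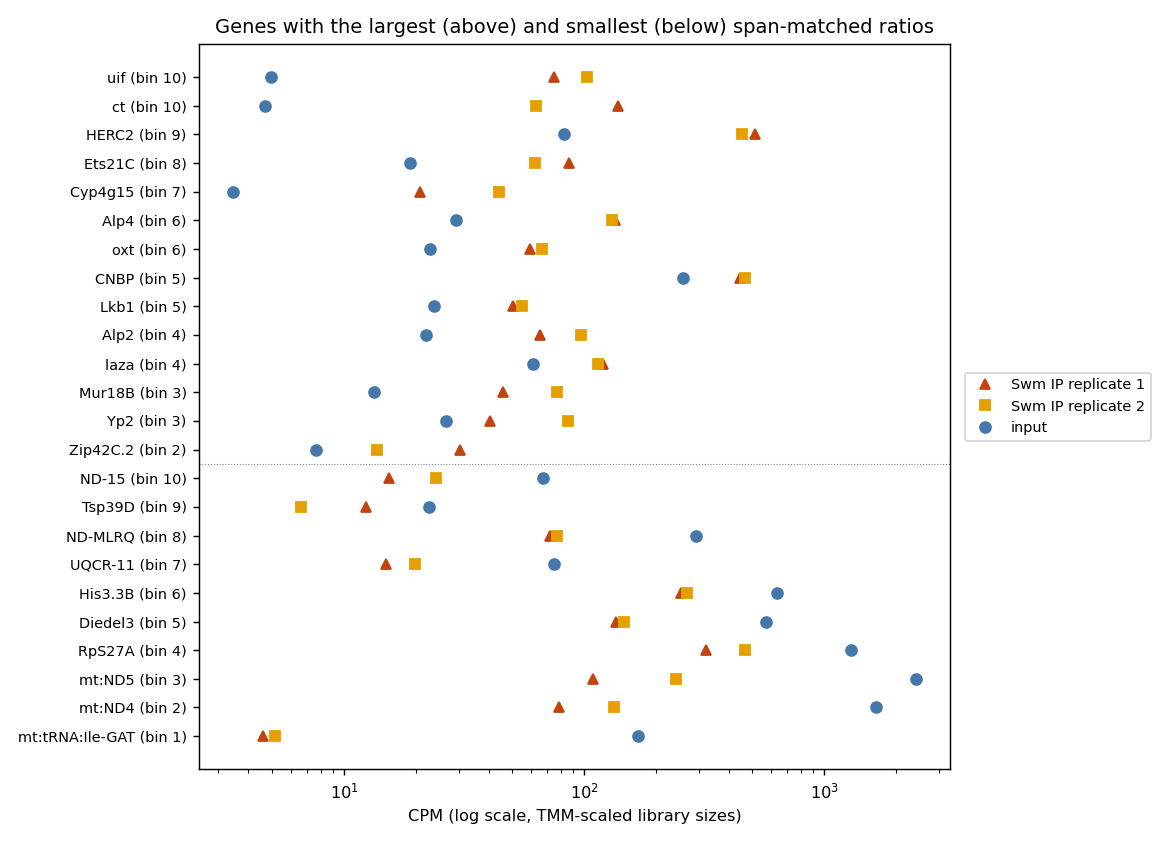
CPM on a log axis in Swm IP replicates 1 and 2 and in the input for named genes with the largest (above the dotted line) and the smallest span-matched ratios of each span bin. Kul of bin 8 and Br140 of bin 7, also named as leading upward in their bins, are not drawn. Both Swm IP points lie right of the input point for the 14 genes above the line and left of it for the 10 genes below it.

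At the lower end, 1 gene was taken from each bin. Diedel3, a small secreted immune regulator gene without introns here, had 135 and 146 CPM in Swm IP and 572 CPM in the input (span-matched log2 ratio -1.78, SE 0.21, adjusted p = 1.3e-07). His3.3B, which encodes the replacement histone H3.3, had 254 and 267 CPM in Swm IP and 635 CPM in the input (-1.22, adjusted p = 0.000131). UQCR-11, of respiratory complex III, had 15 and 19.8 CPM in Swm IP and 75.2 CPM in the input (-2.31, and -1.63 relative to genes of like exon length, adjusted p = 8.6e-05 and 0.00173). The 2 Swm IP libraries stood together and below the input for all 3 genes.

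The leading low genes of bins 8 (ND-MLRQ), 9 (Tsp39D) and 10 (ND-15), and of bin 4 (RpS27A), had spans of 71.9 to 97.3% intron. UQCR-11 of bin 7 had 70.5%. ND-15, a complex I subunit gene whose span of 41305 bases is 97.3% intron and holds 13 other genes, had 15.4 and 24.2 CPM in Swm IP and 67.5 CPM in the input. Its span-matched log2 ratio was -2.82 (SE 0.40, adjusted p = 4e-06) and its ratio relative to genes of like exon length was -0.86 (adjusted p = 0.234). ND-MLRQ, also of complex I, stood at -2.34 span-matched and -0.66 exon-matched (adjusted p = 2e-09 and 0.0769). RpS27A, which encodes a fusion of ubiquitin with a ribosomal protein, stood at -1.34 and -0.42 (adjusted p = 0.000132 and 0.232), and the tetraspanin gene Tsp39D was at 12.3 and 6.59 CPM in Swm IP and 22.5 CPM in the input, with an exon-matched ratio of -1.22 (span-matched adjusted p = 0.0382, exon-matched 0.281). ND-15, ND-MLRQ, RpS27A and Tsp39D all lost the call when compared with genes of like exon length, while UQCR-11 kept it.

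Transcripts of the mitochondrial genome, which never pass through the nucleus, had negative ratios in all 37 tested members, from -8.75 to -1.15 span-matched. Of these, 31 were lower past the test (background 4.7%) and none higher, while DESeq2 called 19 lower, with a median span-matched log2 ratio of -3.42 against 0.06 over all tested genes, and 26 were lower under all 6 treatments of length. Their share of counts was 0.693% and 1.34% in the Swm IP libraries and 9.15% in the input (95% Wilson intervals 0.683 to 0.703%, 1.34 to 1.35% and 9.12 to 9.17%). mt:ND4 and mt:ND5, subunits of complex I, had 78.8 and 134 CPM and 109 and 241 CPM in Swm IP, against 1646 and 2410 CPM in the input, with span-matched log2 ratios of -3.10 and -3.18. The ribosomal RNAs mt:lrRNA and mt:srRNA stood at -2.64 and -2.20, and mt:CoI and mt:CoIII, of complex IV, at -2.62 and -1.87. Mitochondrial tRNAs reached further down: mt:tRNA:Ala-TGC had 4 and 5 counts in Swm IP and 1302 in the input (-7.46, SE 0.39), and mt:tRNA:Phe-GAA had no count in either Swm IP library and 70 in the input, at least 67.6-fold lower without length matching (against 3 counts over both Swm IP libraries). Replicate 2 held a larger share than replicate 1, and both lay far below the input.

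Other short RNAs of the cell did not move as 1 group. Of 81 tested RNAs with a span of 200 bases or less, the median log2 ratio without matching was -2.78. It was -5.46 for 22 mitochondrial ones, -2.94 for 28 nuclear tRNAs, -2.12 for 7 small nuclear RNAs, -1.65 for 10 ribosomal RNAs or copies and 1.56 for 11 small nucleolar RNAs. The shortest span bin holds these beside short messenger RNAs, so a span-matched ratio in it compares unlike kinds of RNA. Among 8 tested small nuclear RNAs, which form spliceosomes or regulate transcription, 3 were lower (background 4.7%): snRNA:7SK (302 and 620 CPM in Swm IP, 2542 CPM in the input; span-matched -1.27, edgeR adjusted p = 0.00879), snRNA:U6atac (-1.76) and snRNA:U5:63BC (-0.91). DESeq2 called 2 lower, and snRNA:7SK alone was lower under all 6 treatments of length. snRNA:U1:82Eb went the other way without a call (2.59, SE 1.52), with 181 and 62.9 CPM in Swm IP and 48.7 CPM in the input. None of the 28 nuclear tRNAs was called within span bins, against 8 lower without matching (background 8.97%). Within span bins 1 was higher and 6 lower at an unadjusted p below 0.05, and DESeq2 called none.

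Small nucleolar RNAs, which guide pseudouridylation (Psi) or methylation (Me) of ribosomal RNA, took 2.99% and 1.16% of counts in Swm IP and 0.346% in the input (95% Wilson intervals 2.97 to 3.01%, 1.15 to 1.17% and 0.340 to 0.351%). Of 11 tested, edgeR called none higher and 1 lower within span bins, with none higher at an unadjusted p below 0.05, and DESeq2 called 3 higher and 1 lower there. Without length matching edgeR called 3 higher and 3 lower (background 9.25% and 8.97%). The largest, snoRNA:Psi28S-3342, had 34650 and 46981 counts in Swm IP and 5857 in the input, or 13316 and 5161 CPM against 1449 CPM. Replicate 1 stood more than 2-fold above replicate 2, and the span-matched log2 ratio had a large error (3.96, SE 1.47, edgeR adjusted p = 0.536). The same held for snoRNA:Psi18S-176 (3458 and 1077 CPM in Swm IP, 342 CPM in the input) and snoRNA:Psi18S-301 (2237 and 709 CPM in Swm IP, 498 CPM in the input). The 4 tested members named for pseudouridylation, a group formed after their values were seen, had a median span-matched log2 ratio of 3.46, and the 4 named for methylation or U3 one of 0.77. snoRNA:Me18S-A1806 had 32.3 and 21.8 CPM in Swm IP and 102 CPM in the input, and snoRNA:185 had 289 and 1047 counts in Swm IP and 2007 in the input (-0.91, adjusted p = 0.00596). The direction of snoRNA:185 turned to 1.29 when span was removed as a smooth trend.

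What the table could show of small RNAs is limited by where their genes lie. Of 3059 genes that lie wholly inside another gene of the table, 1 had any count in the 3 libraries, against 11763 of the 14747 other genes. This held on both strands: 0 of 1385 genes on the strand of the host and 1 of 1674 on the opposite strand had a count. Of 304 small nucleolar and Cajal body RNA genes 254 lie inside another gene, and of 297 nuclear tRNA genes 126, all without a count. Their abundance cannot be read from this table, and the 11 small nucleolar RNAs tested come from the others.

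Genes and copies of the large nuclear ribosomal RNAs, listed after their values were seen, held 8 higher calls. Of 14 tested, 8 were called higher and none lower (background 1.97% higher and 4.7% lower), with a median span-matched log2 ratio of 1.41. All 8 were called under all 6 treatments of length. 28SrRNA-Psi:CR45855, a pseudogene copy, had 148 and 165 CPM in Swm IP and 51.5 CPM in the input (2.82, SE 0.30, adjusted p = 5.6e-09). pre-rRNA:CR45856, a locus of the unprocessed transcript, had 75.7 and 60.1 CPM in Swm IP and 19.8 CPM in the input (1.54, SE 0.37, adjusted p = 0.00679). pre-rRNA:CR45845, the other such locus tested and the more deeply counted, had 300 and 119 CPM in Swm IP and 154 CPM in the input, so that replicate 1 lay above the input and replicate 2 below it (0.03, and -0.62 relative to genes of like exon length, without a call). 18SrRNA-Psi:CR41602 stood at -0.02, and the 8 tested 5S genes and copies, which are transcribed apart from the large ones, had a median of -0.77 with no call. The libraries were depleted of ribosomal RNA, and whether depletion worked alike in Swm IP and input was not tested. Such copies can share reads, and their likeness in sequence was not measured.

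Among long noncoding RNAs, 105 were tested, and within span bins 2 were higher (background 1.97%) and none lower. Within exon-length bins 10 were higher (background 2.54%) and without matching 12 (background 9.25%), with none lower in either, and 84 of the 105 ratios were positive both span-matched and exon-matched. Of the 105, 9 had no input count and 21 had 1 to 3, lncRNA:CR43794 among them. Those passed the filter only through the Swm IP libraries and so had to be higher there, which limits the counts of higher calls and of positive ratios. The same holds for any of the 105 with more input counts that were still below the filter's minimum. lncRNA:CR43794 had 15 and 87 counts in Swm IP and 3 in the input, a ratio of 11.7 without length matching (95% interval 3.91 to 57.9). lncRNA:CR44999 had 81.1 and 32.5 CPM in Swm IP and 7.42 CPM in the input (span-matched 1.80, adjusted p = 0.0479). It holds 14 other genes within its span. Antisense RNAs, 16 tested, had no edgeR or DESeq2 call, with 2 higher at an unadjusted p below 0.05.

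Ribosomal protein genes came next in number of lower calls. Of 80 tested cytosolic ribosomal protein genes, 26 fell within span bins and 0 passed as higher (background 4.7% lower), with a median span-matched log2 ratio of -0.50. Without length matching 72 were lower (background 8.97%), and within exon-length bins 16 were lower and 1 higher (background 4.3% and 2.54%). RpL38 had 40.7 and 55.6 CPM in Swm IP and 556 CPM in the input (span-matched -2.67, SE 0.22, adjusted p = 1.8e-11), and RpL39 had 96.5 and 141 CPM in Swm IP and 731 CPM in the input (-1.41, SE 0.22, adjusted p = 1.5e-05). The Swm IP libraries stood together and far below the input for both. Of 14 ribosomal protein genes the call held under all 6 treatments of length.

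Calls among nuclear genes of the respiratory chain differed with the length treatment. The background of lower calls was 8.97% without matching, 4.7% within span bins and 4.3% within exon-length bins. Of 32 complex I genes 29 were lower without matching, 4 within span bins (ND-15, ND-MLRQ, ND-39 and ND-49) and 1 within exon-length bins, where none of those 4 was called. Of 31 genes of complexes II to V, 7 were lower within span bins, and 4 of them under all 6 treatments. The ATP synthase gene ATPsyndelta stood at 137 and 164 CPM in Swm IP and 287 CPM in the input (-1.15, SE 0.22, adjusted p = 0.000614). Of 71 mitochondrial ribosomal protein genes 2 were lower, mRpS5 (-1.89) and mRpS9 (-1.38), the second of which stood at -0.05 relative to genes of like exon length. None of 30 proteasome genes was called within span bins, against 17 lower without matching, and 3 were lower at an unadjusted p below 0.05, with Rpn1 at -0.32 and Rpn2 at 0.18. Within exon-length bins Rpn1 was lower (-0.68, edgeR adjusted p = 0.0364). None of 31 aminoacyl-tRNA synthetase genes was called, 1 was lower at an unadjusted p below 0.05, and DESeq2 called none of these or of the proteasome genes, with GluProRS at -0.06 and ValRS at 0.05.

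The next lists stand beside a background within span bins of 1.97% higher and 4.7% lower. Of 40 translation factor genes 1 was higher and 4 lower, eEF5 at -0.87 and eIF4G1 at -0.83 among them, and eEF5 stood at -0.17 relative to genes of like exon length (edgeR adjusted p = 0.748). eIF4G1, the scaffold of the cap-binding complex, had 721 and 552 CPM in Swm IP and 695 CPM in the input, so that its CPM hardly differed while genes of its span were mostly higher in Swm IP. Of 19 subunit genes of the vacuolar proton ATPase, VhaPPA1-1 was higher (0.75, adjusted p = 0.0465) and Vha100-5 lower (-0.84, adjusted p = 0.0145). In glycolysis 2 of 12 genes were lower, Eno (-0.86) and Gapdh2 (-0.71). Hsp70Ab and Hsp70Bb, copies of the heat-inducible chaperone gene without introns, stood at -1.30 and -1.15 (adjusted p = 0.000273 and 0.00464), 2 of 3 lower among 19 heat shock genes. The caspase gene Damm was the 1 call among 15 apoptosis genes, with 174 and 201 CPM in Swm IP and 576 CPM in the input (-1.24, adjusted p = 0.000115).

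Genes of digestion differed by class. Of 19 tested glycosidases, lipases and lysozymes 9 fell and 0 passed as higher (background 4.7% lower), at a median of -0.66, and 8 of the 9 were lower under all 6 treatments of length. The maltase genes Mal-A6 and Mal-A1 had 305 and 306 CPM and 586 and 752 CPM in Swm IP, against 817 and 1881 CPM in the input (-1.18 and -1.11, adjusted p = 0.000231 and 0.0012). Of 28 serine proteases 22 were lower without matching (background 8.97%). Within span bins Jon99Ciii alone was lower, 1 of 28 against the background of 4.7% (2042 and 2322 CPM in Swm IP, 7155 CPM in the input; -0.86, edgeR adjusted p = 0.0241). Detoxifying enzymes showed few calls (background 1.97% higher and 4.7% lower). Among 51 cytochrome P450 genes Cyp4g15 was higher, and 2 were lower, Cyp9f2 at -1.04 among them. Among 28 UDP-glycosyltransferases Ugt303B1 was higher (0.99), and none of 27 glutathione S-transferases was called (1 lower at an unadjusted p below 0.05, none by DESeq2), with GstD1 at -0.01 and GstT4 at -1.02. None of 8 peptidoglycan recognition protein genes was called (likewise 1 lower and none), with PGRP-SC2 at 0.16 and PGRP-SC1b at -0.93 (adjusted p = 0.0508).

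Genes for handling RNA, the class Swm itself belongs to, held few calls. None of 16 SR-type splicing factor genes, 31 mRNA export and nuclear exosome genes (swm among them) or 26 nucleoporin genes was called by edgeR or DESeq2 within span bins. At an unadjusted p below 0.05, 1 SR gene was higher, 1 export gene was lower and 2 nucleoporin genes were lower. Their medians were 0.12, -0.10 and -0.04. B52 and Srp54 stood at 0.15 and 0.43, and Nup358 and Nup153 at 0.28 and 0.18. Dbp80, an export helicase gene with a span of 142844 bases, stood at -0.03 relative to genes of like span and at 1.14 relative to genes of like exon length (adjusted p = 1.5e-05). Of 33 genes of RNA granules and translational repression, 11 were higher without matching (background 9.25%) and 1 within span bins (background 1.97%). It was the gene called lost, with 586 and 557 CPM in Swm IP and 336 CPM in the input (0.84, SE 0.23, adjusted p = 0.0201). The microRNA effector gene gw had 340 and 276 CPM in Swm IP and 319 CPM in the input, below genes of like span (-0.76, adjusted p = 0.0254), and bru1, which was named after its values were seen, was the second lower one. Of 11 genes of the piRNA pathway tud was higher, with 1815 and 1351 CPM in Swm IP and 562 CPM in the input (1.11, adjusted p = 0.00348), and 0.46 relative to genes of like exon length (adjusted p = 0.184).

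Genes of progenitor identity and of the pathways that govern progenitors lost most of their higher calls once length was matched. Tested genes as a whole did so too, with 9.25% higher without matching and 1.97% within span bins. Of 17 progenitor genes 5 were higher without matching and 1 within span bins, zfh1, with 23 and 89 counts in Swm IP and 1 in the input, a ratio of 38.7 without length matching (95% interval 6.80 to 1541). It passed the filter on low counts only through the Swm IP libraries and was not called within exon-length bins (adjusted p = 0.0521). esg, the progenitor transcription factor, had 30.7 and 43.9 CPM in Swm IP and 33.2 CPM in the input (0.56, SE 0.41). In the Notch pathway 4 of 24 genes were higher without matching and none within span bins (2 higher and 1 lower at an unadjusted p below 0.05, none by DESeq2), with Dl, the ligand, at -0.55 (SE 0.43), N, the receptor, at -0.35 (SE 0.36), Su(dx), a ligase acting on Notch, at 0.17 and the corepressor gene CtBP at -0.19. In the Hippo and Wnt list 10 of 33 were higher without matching. Within span bins none was higher, and pan, the Wnt transcription factor, was lower (116 and 118 CPM in Swm IP, 121 CPM in the input; -1.15, adjusted p = 0.00238).

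Sos, the exchange factor that activates Ras, was the 1 call of 25 EGFR, Ras and Pvr genes (142 and 138 CPM in Swm IP, 54.7 CPM in the input; 1.13, adjusted p = 0.00747), at 0.74 relative to genes of like exon length (adjusted p = 0.093). Of 27 JAK-STAT and insulin genes, Socs16D, which encodes a suppressor of cytokine signalling, was higher with 294 and 219 CPM in Swm IP and 77.2 CPM in the input (1.35, SE 0.25, adjusted p = 0.000287). foxo, the transcription factor restrained by insulin, and Stat92E, named after its value was seen, were lower. foxo had 290 and 280 CPM in Swm IP and 294 CPM in the input, with -1.14 span-matched (adjusted p = 0.000342) and -0.44 exon-matched (adjusted p = 0.21). Of 26 genes of JNK and stress transcription 3 were higher and 3 lower within span bins (background 1.97% higher and 4.7% lower). Of these hep, the JNK kinase, and slpr, a kinase above it, stood at 0.74 and 1.06 beside Ets21C, and slpr was not called within exon-length bins.

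Adhesion genes behaved alike (background 9.25% higher without matching, and 1.97% higher and 4.7% lower within span bins). Of 26 integrin and basement membrane genes 10 were higher without matching, and within span bins 2 were higher and 2 lower. Tig, an integrin ligand of muscle, had 14.6 and 36.5 CPM in Swm IP and 1.73 CPM in the input (3.54, SE 0.78, edgeR adjusted p = 0.00353). With 7 input counts, Tig passed the filter only through the Swm IP libraries. The integrin alpha subunit gene mew stood at -0.83 span-matched (edgeR adjusted p = 0.0204), -0.36 relative to genes of like exon length (adjusted p = 0.41) and 0.26 without matching. Of 30 junction genes 10 were higher without matching, and within span bins none was higher and alpha-Cat, the cadherin linker, was lower (80.3 and 68.3 CPM in Swm IP, 105 CPM in the input; -1.20, adjusted p = 0.00454). shg, which encodes E-cadherin, stood at -0.10 span-matched and at -0.74 relative to genes of like exon length (adjusted p = 0.01). None of 44 cell cycle genes, 26 DNA repair genes, 23 Imd and Toll genes or 28 regional transcription factor genes of the gut was called by edgeR or DESeq2 within span bins. At an unadjusted p below 0.05 the counts were 0, 0, 1 lower, and 3 higher with 2 lower. Their 2 most abundant members were E2f1 (0.28) and Dp (0.02), Parp (0.18) and Top1 (0.20), pirk (-0.16) and Tab2 (-0.33), and dve (-0.10) and GATAe (-0.01). Parp, with a span of 125704 bases, stood at 1.15 relative to genes of like exon length (adjusted p = 4.9e-06).

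**Figure D5:**
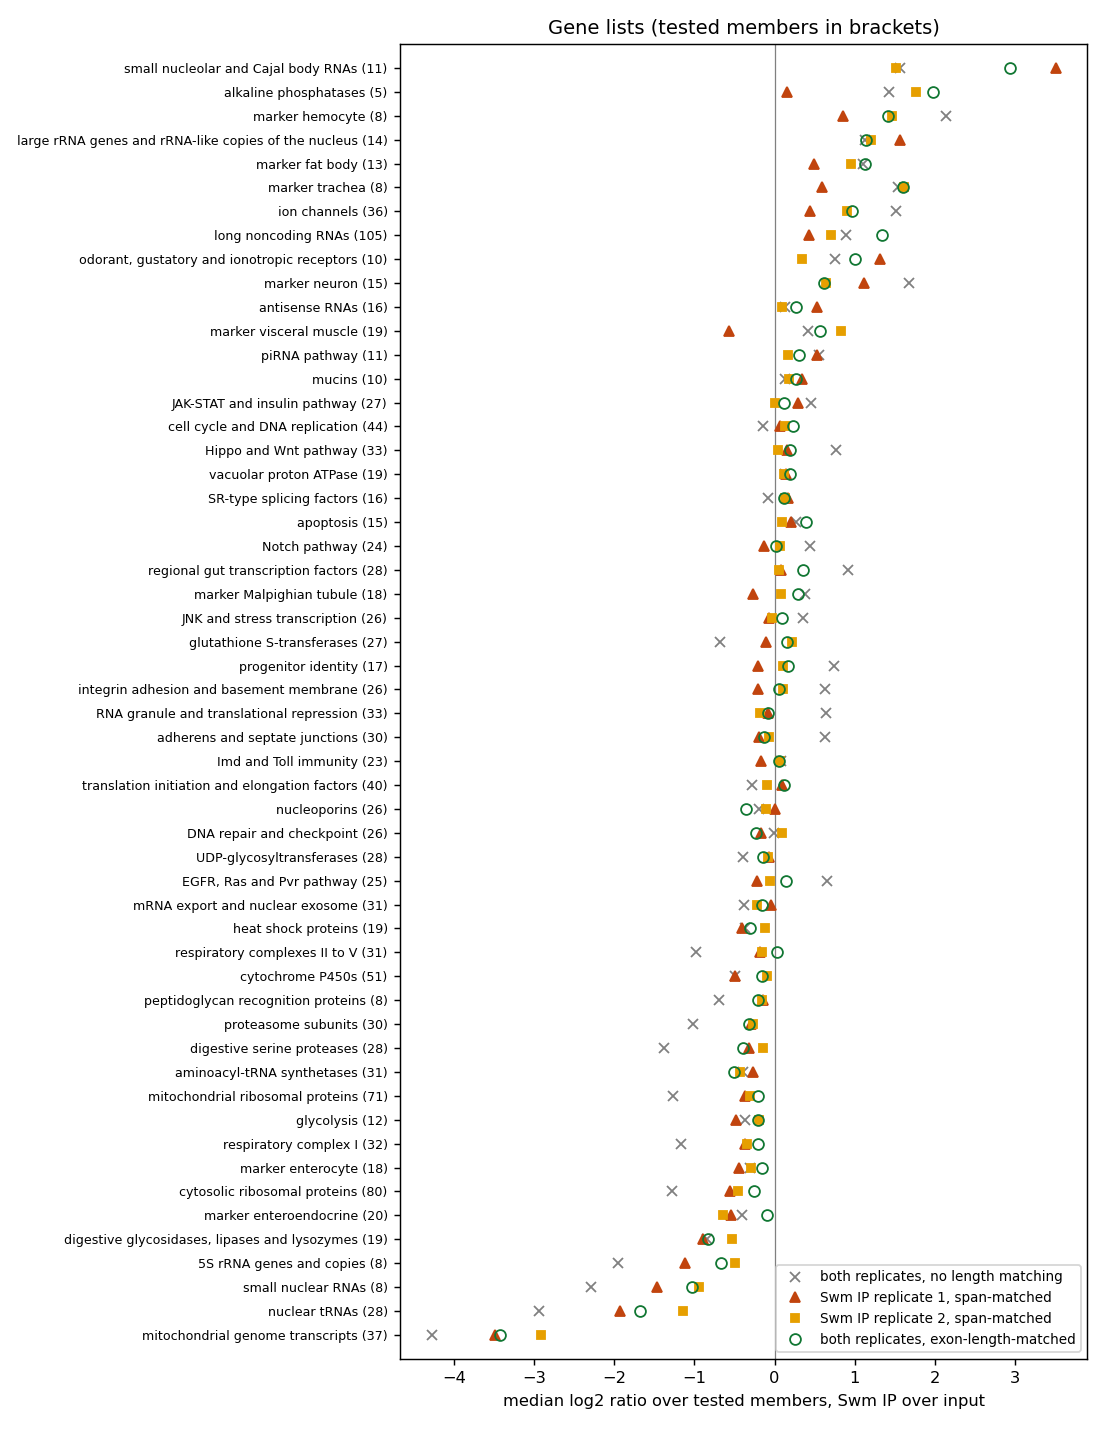
Median log2 ratio of Swm IP over input over the tested members of each list, span-matched for Swm IP replicates 1 and 2, and for both together relative to genes of like exon length and without length matching. Lists with under 5 tested members are left out, as are lists whose median rests on genes without input counts; mitochondrial genome transcripts lie lowest, and grey crosses lie away from 0 for lists of short (left) or long (right) genes whose coloured points lie near 0.

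Markers of the intestine's own cells held few calls beside backgrounds of 1.97% higher and 4.7% lower. Of 18 enterocyte markers, with a median of -0.33 span-matched and -0.15 exon-matched, 1 was higher (Alp4) and 2 lower, Npc2f at -1.58 among them (-0.53 exon-matched, adjusted p = 0.323). nub and Myo31DF stood at -0.44 and -0.58 without a call. Of 20 enteroendocrine markers, with medians of -0.55 and -0.10, 2 were lower, the peptide hormone genes AstC (18.1 and 22.1 CPM in Swm IP, 64.1 CPM in the input; -1.88, adjusted p = 0.00143) and Tk (-1.42, adjusted p = 0.0261). Both have more than 75% intron and stood at -0.76 and -0.25 relative to genes of like exon length, without a call, and pros stood at -0.73.

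The 2 Swm IP libraries differed in RNA of visceral muscle. The 19 muscle markers took 2.31% and 3.03% of counts in Swm IP and 0.668% in the input, and their median span-matched log2 ratio was -0.57 in replicate 1 and 0.83 in replicate 2. Most of the share in replicate 1 came from Msp300, a giant nuclear anchor protein gene, at 17757 and 14508 CPM in Swm IP and 4390 CPM in the input (0.78, adjusted p = 0.0959). sls and bt, which encode titin-like proteins, had 1322 and 5319 CPM and 525 and 2998 CPM in Swm IP, against 428 and 392 CPM in the input. Msp300, sls and bt were named after their values were seen. Tm1, tropomyosin, was the 1 call of the list (604 and 632 CPM in Swm IP, 586 CPM in the input; -1.02, adjusted p = 0.00215, and 0.08 without matching). Fewer or more muscle cells and less or more RNA per cell cannot be told apart in such bulk libraries.

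Genes of tissues outside the gut had few input counts. Of 36 ion channel genes 4 were higher and none lower within span bins (background 1.97% higher), and DESeq2 called none of the 36. Of these genes 1 had no input count and 7 had 1 to 3. Those passed the filter only through the Swm IP libraries and so had to be higher there. The same holds for any of the 36 with more input counts that were still below the filter's minimum. The called gene para was among those with 1 to 3, so the 4 calls are no fair count beside the background. Sh, a potassium channel gene, had 75 and 415 counts in Swm IP and 15 in the input (2.25, SE 0.57, adjusted p = 0.0096). para, the neuronal sodium channel gene, had 68 and 84 counts in Swm IP and 3 in the input, a ratio of 17.5 without length matching (95% interval 5.87 to 85.8). Both are also the 2 calls among 15 neuron markers, where the same limit holds for para. The tested neuron markers took 0.089% and 0.083% of counts in Swm IP and 0.047% in the input. The receptor-like surface proteins of the dpr and DIP family, which pair neurons, and those of the beat and side family had no higher call within span bins among 25 and 18 tested, against 8 higher in each without matching. Of the dpr and DIP genes 5 had no input count and 9 had 1 to 3, and of the beat and side genes 2 had none and 10 had 1 to 3. Those genes passed the filter only through the Swm IP libraries and so had to be higher there. The same holds for genes of either family with more input counts that were still below the filter's minimum. dpr2, by far the most abundant of the dpr and DIP genes at 1822 and 1956 CPM in Swm IP and 1518 CPM in the input, was lower than genes of like span (-0.78, adjusted p = 0.0372, but 0.20 relative to genes of like exon length). side had 123 and 107 counts in Swm IP and 6 in the input, without a call within span bins (adjusted p = 0.0957) and with one within exon-length bins (adjusted p = 0.000621). It too passed the filter only through the Swm IP libraries.

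For the next markers the background within span bins was again 1.97% higher and 4.7% lower. Of 13 fat body markers the yolk protein genes Yp1 and Yp2 were higher (1.28 and 1.85, edgeR adjusted p = 0.0377 and 0.00425), Yp1 without a call within exon-length bins (adjusted p = 0.0648) or without matching (0.266). Yp2 had 40.7 and 85.5 CPM in Swm IP and 26.7 CPM in the input. Of 8 hemocyte markers the collagen gene vkg was higher (9.61 and 19.9 CPM in Swm IP, 1.24 CPM in the input; 2.89, adjusted p = 0.0469), without a call within exon-length bins, adjusted p = 0.0588. With fewer than 10 input counts, vkg passed the filter only through the Swm IP libraries, so its call is no fair count beside the background. Of 18 Malpighian tubule markers 3 were higher, ct and Alp4 among them, and 1 was lower, with 9 of 18 ratios positive and a median of 0.03. None of 8 tracheal markers was called within span bins by edgeR or DESeq2 (3 higher at an unadjusted p below 0.05), with trh at 2.18 (adjusted p = 0.0964, and 0.00332 within exon-length bins) and pio at -0.40. ninaE, the main opsin gene, had no input count and 19 and 61 counts in Swm IP, at least 9.21-fold higher without matching. Vm26Aa, an eggshell gene, had no input count and 18 and 45 counts in Swm IP, at least 7.25-fold higher. The odorant receptor gene Or83c had no input count and 34 and 13 counts in Swm IP, at least 5.41-fold higher, a bound that was 1.92 for replicate 2 alone and 17.6 for replicate 1 alone. These bounds set Swm IP against 3 input counts, without length matching. The 3 genes were tested only because their Swm IP counts passed the filter, so their calls are no count of marker genes. Of 16 testis markers 2 were tested and 15 had no input count, with bol at -0.51. Of 10 cuticle protein genes tested, 5 had no input count, none was called by edgeR or DESeq2 (2 higher at an unadjusted p below 0.05), and Cpr67B and Cpr51A stood at 0.17 and -0.98. The part of RNA from such tissues in the Swm IP libraries was not tested.

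The authors' deposited table for this comparison gives an adjusted p to 6764 of its 9047 genes and counts 491 higher and 388 lower in Swm IP at 0.05. Their deposited table for sorted progenitors labelled swm RNAi against control progenitors shares no library with it, and 7375 of the tested genes have an adjusted p there. Of these, 227 were higher and 128 lower under swm RNAi in the authors' deposited table. Of the 146 genes called higher in Swm IP within span bins that have one, 2 were higher and 4 were lower in that deposited table. In the authors' deposited table those 4 genes were laza (log2 fold change -1.25), Ets21C (-1.09), Gdh (-1.22) and Dab (-1.16), the last 2 named after their values were seen. The 2 higher ones were kraken (1.23) and 28SrRNA-Psi:CR40596 (1.92), also named after their values were seen. Whether these overlaps exceed the shares over all genes was not tested. Of the 374 called lower, 13 were higher and 8 lower in the authors' deposited table.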

How the data were processed

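Counts per gene were used as the authors deposited them for 2 Swm IP libraries and 1 input library. The deposited counts came from reads trimmed with cutadapt 2.9 and handled with STAR 2.7.3a, SAMtools 1.10 and Subread 2.0.0, per the submitters' processing notes, while build, annotation and strand setting of the counting are not given in the sources used here. Log2 fold changes and adjusted p-values of the authors' deposited tables, for which those notes name DESeq2, were copied unchanged. 15 columns of values per sample and 1 row without a gene name, with at most 1 count in a library, were not used. Genes were kept by the filter of edgeR 4.0.16 with a minimum count of 10. TMM factors were computed within each of 10 span bins and used as offsets in edgeR's robust quasi-likelihood test in R 4.3.3, with Benjamini-Hochberg adjustment at 0.05. This left 1 residual degree of freedom, with the single input library assumed to vary like the Swm IP libraries. CPM values are TMM-scaled without bins, and a ratio's SE is the log2 ratio divided by the root of its F statistic. Exon lengths came from the Length column of the series' other count table, and positions from the BDGP6 annotation. The fit was also run on simulated data, and nothing here is drawn from that run. Members and lists were chosen with earlier results of these data known. Named genes are swm; in each span bin up to 2 genes with the largest and 1 with the smallest ratio among called genes with at least 10 counts (in the input for higher, in each Swm IP library for lower), a log2 difference of at least 1 in both Swm IP libraries and a name beyond a CG or CR number; from each list the 2 called genes of lowest adjusted p, or without a call the 2 most abundant; and 7 cell markers (esg, Dl, N, pros, nub, Myo31DF, shg). Named outside that rule, after their values were seen, were hep, slpr, ND-39, ND-49, mt:CoI, mt:CoIII, mt:lrRNA, mt:srRNA, mt:tRNA:Phe-GAA, snRNA:U5:63BC, the named snoRNAs other than snoRNA:185, the ribosomal RNA copies and precursor loci, Alp10, Mur2B and Muc68D, beside those marked in the text. Intervals of low-count ratios and shares cover counting error only.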

Additional observations from a re-analysis of the deposited data

How the results depend on the processing

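Within span bins, the number of genes higher in Swm IP (165) became 459 with library sizes alone, 108 without the robust option and 95 with DESeq2, and the number lower (394) became 251 with a minimum of 30 counts and 252 with DESeq2. Without bins DESeq2 gave 483 higher and 432 lower, and library sizes alone gave 417 lower. By size alone, the 2-fold counts became 251 higher and 204 lower at 30 counts, 203 lower with library sizes alone, and 381 higher and 187 lower without overlapping genes, an alternative chosen after seeing the data. With either Swm IP library left out they ranged over 1139 to 1310 higher and 690 to 901 lower, since 1 library then has to pass in place of 2; such a fit has no residual degrees of freedom, so it gives no count of calls. Ratios that turned direction were tRNA:SeC-TCA-1-1 (1.51) and snoRNA:185 (1.29) with a smooth trend on span; GstD1 (0.72) and Gapdh2 (0.10) with library sizes alone; dpr2 (0.20) and Dbp80 (1.14) in exon-length bins; Dbp80 (0.97) in exon-length bins crossed with span bins; and dpr2 (0.32), Dbp80 (1.06), PGRP-SC2 (-1.04), mew (0.26), dve (1.00) and Tm1 (0.077) without bins. The cause was not tested. No paired analysis was possible because the Swm IP and input libraries share fewer than 2 replicate numbers. A single input library limits the precision of every ratio.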
